A study of Mus musculus with 7 samples.

Results

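Transcripts of 10 genes that decide where pyruvate goes were followed in MIN6 cells, a mouse insulinoma line that keeps many features of pancreatic beta cells, cultured for 3 days with MPE (polysaccharides extracted from Maidong) or without it. Maidong is the root of Ophiopogon japonicus, used in Chinese medicine. The genes were Ldha and Ldhb (lactate dehydrogenases), Slc16a1 and Slc16a3 (lactate transporters), Mpc1 and Mpc2 (the mitochondrial pyruvate carrier), Pcx (pyruvate carboxylase), and Pdha1, Pdk1 and Pdk2 (pyruvate dehydrogenase and its kinases). They were named by symbol, and their probes were found as the non-control spots of a 1-colour Agilent mouse array whose listed transcript belongs to one of these genes. This gave 16 of 56605 probes, and all 10 genes were among the 22098 genes tested. The vehicle group was 3 arrays of MIN6 cells given phosphate-buffered saline (PBS), and the MPE group was 4 arrays of MIN6 cells given the extract in the same culture system. All cells came from 1 line at passages 20 to 30. The culture notes list doses up to 50 μg/mL without saying which was used for the arrays, and nothing says that replicates were separate cultures. The p-values therefore reflect only how far these samples spread, which may be technical.

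Pyruvate is the end product of glycolysis. Most cells can reduce it to lactate with lactate dehydrogenase and pass the lactate out through monocarboxylate transporters, or import it into mitochondria, where pyruvate dehydrogenase makes acetyl-CoA and pyruvate carboxylase makes oxaloacetate. In beta cells the mitochondrial routes couple glucose to insulin release, and Ldha and Slc16a1 are textbook members of the genes that mature beta cells keep low (often called disallowed genes), which stops muscle-derived pyruvate and lactate from triggering insulin secretion. Pyruvate dehydrogenase kinases phosphorylate the E1 alpha subunit encoded by Pdha1 and thereby slow the entry of pyruvate into the citrate cycle.

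Levels are log2 intensities relative to the 75th percentile of all probes on the same array, so a level of 0 is that percentile and a difference of 1 is a doubling. They compare 1 probe between arrays and not different genes, since probes differ in brightness: the 2 Ldha probes, which target the same transcript, were 4.84 log2 units apart. The 7 arrays shared 1 slide. Its first row held the vehicle group and its second row the MPE group, and row and treatment cannot be told apart. Slide columns were shared between the groups, with vehicle replicates 1, 2 and 3 in columns 1, 2 and 4 and MPE replicates 1 to 4 in columns 1 to 4. Between 27901 and 30111 probes per array were well above background. All 16 beta-cell markers checked, including the insulin genes Ins1 and Ins2, were well above background on all 7 arrays. So were the other islet hormone genes Gcg, Sst, Ppy and Ghrl and the exocrine and duct genes Cela2a, Cel and Krt7. Of 14 stromal, endothelial and immune markers, 7 (Col1a2, Acta2, Tagln, Esam, Itgam, Cd68 and Cd3e) were well above background on all 7 arrays, and the other 7, among them Col1a1 on 0 arrays and Ptprc on 1, were not tested.

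None of the 10 genes differed between MPE and vehicle by limma's moderated test. Of all genes tested, 0.00453% were called at an adjusted p under 0.05, which is 1 gene, against 0 of the 10. At an unadjusted p under 0.05 the shares were 4.10% of all genes (0.756% higher and 3.35% lower with MPE) and again 0 of the 10. The fitted MPE levels lay between 0.893 times (Ldha) and 1.04 times (Ldhb) the vehicle levels. Of the 10 genes, 5 were on the higher side and 5 on the lower side, where 42.3% of all genes were on the higher side, with a median log2 difference of -0.02, the same to 2 decimals as the median of all genes. Every 95% interval lay inside 1.5-fold in both directions, which held for 80.7% of all genes. The outermost bounds were 0.741 times for Pdk2 and 1.23 times for Ldhb. Intervals of this width leave room for changes of 1.2-fold in some genes: the interval excluded a rise of that size in 9 of the 10 and a fall of that size in 7. The adjusted p of each of the 10 was 1.00.

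**Figure D1:**
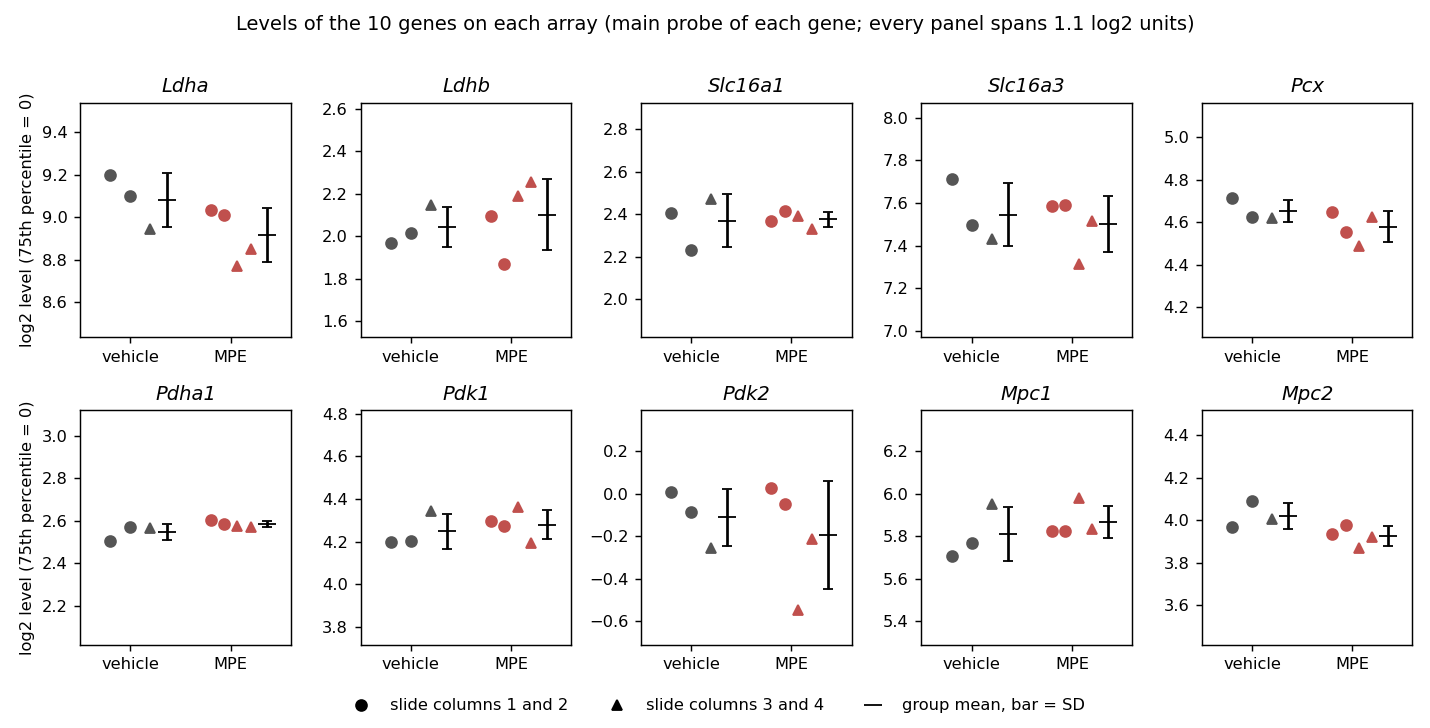
Log2 level of each of the 10 genes on each array (vertical axis, 75th percentile of the array at 0), for 3 vehicle arrays (grey) and 4 MPE arrays (red), with circles for slide columns 1 and 2, triangles for columns 3 and 4, and the group mean with its SD in black. The groups overlap for every gene except Pdha1, whose MPE arrays sit just above the vehicle arrays, and the triangles lie below the circles for Ldha and Pdk2 and above them for Ldhb.

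Ldha encodes the muscle-type subunit of lactate dehydrogenase, which favours the reduction of pyruvate to lactate. Its brighter probe was well above background on every array, so the transcript was readily measured in these cells although it belongs to the genes held low in mature beta cells. It read 9.20, 9.10 and 8.95 on the vehicle arrays and 9.04, 9.01, 8.77 and 8.85 on the MPE arrays. The highest values were vehicle replicates 1 and 2 and the lowest were MPE replicates 3 and 4, but the groups overlapped, because vehicle replicate 3 lay below MPE replicates 1 and 2. The difference was -0.16 (SE 0.09), or 0.893 times vehicle with a 95% interval of 0.766 to 1.04, and its unadjusted limma p was 0.122. The second Ldha probe read 4.21, 4.13 and 4.05 with vehicle and 4.19, 4.17, 4.01 and 4.27 with MPE. It gave 0.03 (SE 0.08), the opposite direction, so that the lower Ldha signal with MPE was not seen by both probes of the transcript.

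Bright genes as a class had lower MPE means. Among the 486 genes with a mean level above 7, 93.4% were lower with MPE, with a median of -0.06, against 57.7% and -0.02 of all genes. Ldha and Slc16a3 are both in that bright class. Quantile normalization, which gives every array the same distribution of intensities, brought the Ldha difference to -0.04. The authors' value table, which also has the same distribution on every array and is thus not a separate check, gave -0.04.

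Ldhb encodes the heart-type subunit, which favours the oxidation of lactate. Its brighter probe read 1.97, 2.02 and 2.15 with vehicle and 2.09, 1.87, 2.19 and 2.25 with MPE. MPE replicate 2 was the lowest of all 7 arrays and MPE replicate 4 the highest, so the groups overlapped fully, and the difference was 0.06 (SE 0.10). The dimmer Ldhb probe, which targets another transcript of the gene, ranged more widely, from -2.07 to -1.41, and gave -0.05 (SE 0.20).

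Slc16a1 encodes MCT1, the monocarboxylate transporter whose loss from beta cells keeps circulating pyruvate and lactate out. Its single probe was well above background on all 7 arrays. It read 2.41, 2.23 and 2.47 with vehicle and 2.37, 2.41, 2.39 and 2.33 with MPE. All 4 MPE values lay between the lowest and the highest vehicle value, and the MPE mean was 1.00 times the vehicle mean (0.896 to 1.12). Slc16a3 encodes MCT4, the lactate exporter of glycolytic cells. It read 7.71, 7.50 and 7.43 with vehicle and 7.59, 7.59, 7.31 and 7.52 with MPE, so the lowest array was MPE replicate 3 and the highest was vehicle replicate 1. The MPE mean was 0.970 times vehicle (0.823 to 1.14). The direction of both transporters changed with the setting used, as given in the closing section.

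The stretches upstream of Ldha, Slc16a1 and Slc16a3 carry a short motif that the stretch upstream of Ldhb lacks. The sequences of the enzyme pair and the transporter pair are shown because these 4 genes make and carry lactate. They are the 250 bases before the RefSeq start of each gene, from a table of the assembly GRCm38.p6 that matched all 10 genes, written 5′ to 3′ on the gene's own strand. For Ldha the table lists 2 starts, and the upstream one is shown, since the window before the other holds no match. Capitals mark the letters ACGTG on either strand (CACGT on the strand shown). These letters are a form of the core that hypoxia-inducible factors bind, and they also lie within the E-box CACGTG. The other form of that core, GCGTG, was not searched for, and the Ldhb stretch below holds it. The motif was chosen with the array values known.
Ldha (chr7:46845554-46845803, + strand): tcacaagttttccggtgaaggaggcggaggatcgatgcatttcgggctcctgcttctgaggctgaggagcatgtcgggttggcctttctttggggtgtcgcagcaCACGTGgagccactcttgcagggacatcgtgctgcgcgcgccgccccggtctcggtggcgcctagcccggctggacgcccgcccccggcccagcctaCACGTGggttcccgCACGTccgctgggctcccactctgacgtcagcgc
Ldhb (chr6:142507958-142508207, - strand): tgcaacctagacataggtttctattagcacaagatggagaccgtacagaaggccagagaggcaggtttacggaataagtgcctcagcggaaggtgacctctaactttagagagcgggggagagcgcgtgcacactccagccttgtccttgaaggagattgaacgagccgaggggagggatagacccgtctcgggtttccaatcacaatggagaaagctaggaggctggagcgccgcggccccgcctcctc
Slc16a1 (chr3:104638414-104638663, + strand): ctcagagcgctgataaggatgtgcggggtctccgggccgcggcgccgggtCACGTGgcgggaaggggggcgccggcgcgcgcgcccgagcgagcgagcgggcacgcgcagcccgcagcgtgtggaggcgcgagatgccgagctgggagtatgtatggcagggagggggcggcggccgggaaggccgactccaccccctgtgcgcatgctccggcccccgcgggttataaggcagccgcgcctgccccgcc
Slc16a3 (chr11:120948817-120949066, + strand): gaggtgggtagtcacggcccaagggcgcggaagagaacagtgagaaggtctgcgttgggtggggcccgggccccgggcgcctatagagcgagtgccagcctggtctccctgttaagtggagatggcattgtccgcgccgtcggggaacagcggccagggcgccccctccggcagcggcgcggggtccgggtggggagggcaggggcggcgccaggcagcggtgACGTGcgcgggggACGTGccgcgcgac

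Before the start shown, Ldha held 3 stretches with the motif, 2 of them the E-box CACGTG, and before its other start it held 0, while Ldhb held none in this window. Slc16a1 held 1 and Slc16a3 held 2. Among the other members, Pcx and Pdk2 held the motif before 1 of their 2 listed starts, and Pdha1, Pdk1, Mpc1 and Mpc2 held none, which makes 5 of the 10 genes with a match before any start, against 18.5% of all genes in the table. Of all 32851 listed starts, 16.6% had ACGTG on either strand and 6.02% had CACGTG. The letters GCGTG were not counted, and they occur before a start of Ldhb, Pdha1 and Pdk1, among others. A match is a description of the letters ACGTG and not a site in use.

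Mpc1 and Mpc2 encode the partners of the heterodimer that carries pyruvate across the inner mitochondrial membrane. Mpc1 read 5.71, 5.77 and 5.95 with vehicle and 5.83, 5.82, 5.98 and 5.83 with MPE. MPE replicate 3 was the highest array and the other 3 MPE arrays lay within the vehicle range. The difference was 0.06 (SE 0.08), and the second Mpc1 probe gave 0.08 (SE 0.08). Mpc2 read 3.97, 4.09 and 4.01 with vehicle and 3.93, 3.98, 3.87 and 3.92 with MPE. Only MPE replicate 2 reached the vehicle range, and the difference was -0.09 (SE 0.06), or 0.937 times vehicle (0.856 to 1.03). The carrier partners thus had fitted differences of opposite sign, neither of which passed.

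Pcx encodes pyruvate carboxylase, the anaplerotic enzyme that is abundant in beta cells. It read 4.72, 4.63 and 4.62 with vehicle and 4.65, 4.56, 4.49 and 4.62 with MPE. The spread was narrow, and the MPE mean was 0.950 times vehicle (0.860 to 1.05). Pdha1 encodes the E1 alpha subunit of pyruvate dehydrogenase, the other mitochondrial entry. It was the steadiest of the 10 genes, reading 2.50, 2.57 and 2.57 with vehicle and 2.61, 2.59, 2.58 and 2.57 with MPE. All 4 MPE arrays lay above all 3 vehicle arrays, by a margin smaller than the second decimal shows. Pdha1 was the only 1 of the 10 without overlap, where 4.52% of all genes had none. Its difference was 0.04 (SE 0.05), or 1.03 times vehicle (0.952 to 1.11), and with each array scaled to its median it was -0.03.

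Pdk1 and Pdk2 encode kinases that switch pyruvate dehydrogenase off, the former a known target of hypoxia signalling. Pdk1 had 4 probes. Its brightest read 4.20, 4.20 and 4.34 with vehicle and 4.29, 4.27, 4.36 and 4.19 with MPE, with MPE arrays at both ends of the range. The difference was 0.03 (SE 0.06). The other Pdk1 probes gave 0.03 (SE 0.06), -0.06 (SE 0.12) and -0.18 (SE 0.13), the last from the dimmest probe, so the probes differed in direction and each difference lay within 2 SE of 0. Pdk2 had the widest spread of the 10 genes. It read 0.01, -0.08 and -0.25 with vehicle and 0.03, -0.05, -0.54 and -0.21 with MPE, with MPE replicate 3 lowest and MPE replicate 1 highest. Its difference was -0.09 (SE 0.15), and without MPE replicate 3 it was 0.03.

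Over all 16 probes, fitted with the 28938 probes that passed the filter, 0 passed an adjusted p of 0.05 and 0 had an unadjusted p under 0.05. All 16 were well above background on all 7 arrays, and the lowest signal of any of them on any array was 84.7 intensity units, where the lowest signal with a well-above-background flag was 12.6 to 24.4 per array. That lowest flagged signal was 12.6 to 15.5 on vehicle and 20.6 to 24.4 on MPE arrays, and its part in these values was not tested. The differences ranged from -0.18 to 0.08.

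**Figure D2:**
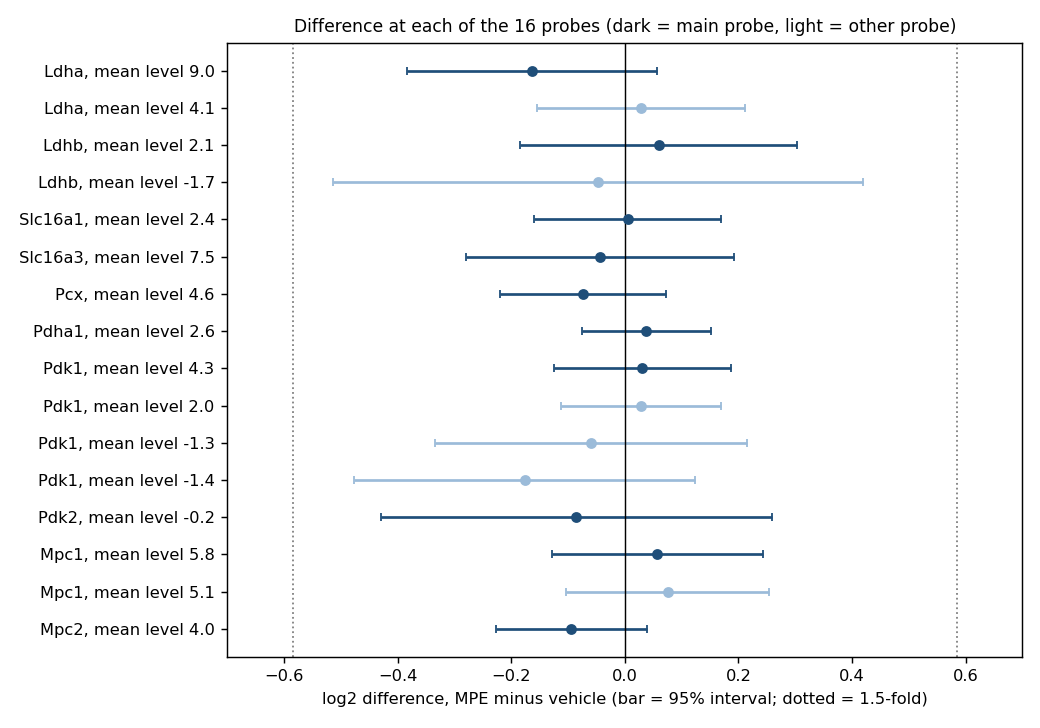
Log2 difference of MPE minus vehicle (horizontal axis) with its 95% interval at each of the 16 probes, with the main probe of each gene in dark blue and the others in light blue, and dotted lines at 1.5-fold. Every interval includes 0 and lies inside the dotted lines, and the probes of Ldha, Ldhb and Pdk1 lie on both sides of 0.

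Subtracting the log2 levels of a pair of genes on the same array cancels the scaling of that array and follows their balance. The level of such a balance has no meaning across probes, so only its change counts, and it was not tested. The balance of Ldha over Ldhb was 7.23, 7.08 and 6.80 with vehicle and 6.94, 7.14, 6.58 and 6.60 with MPE, with overlap between the groups. Its mean was 7.04 ± 0.22 (SD, n = 3) with vehicle and 6.81 ± 0.27 (SD, n = 4) with MPE, a shift of -0.22 that is about the size of the SD. It was -0.13 without vehicle replicate 1, -0.34 without vehicle replicate 3, -0.11 with quantile normalization and -0.073 with the mean of each gene's probes. The balance of the Pcx over the Pdha1 transcript was 2.11 ± 0.09 (SD, n = 3) with vehicle and 1.99 ± 0.07 (SD, n = 4) with MPE. It was the only 1 of 6 balances without overlap, and by a narrow margin, with MPE values of 1.91 to 2.05 and vehicle values of 2.05 to 2.21. The share of all gene pairs without overlap was not counted. The shift of -0.11 in this balance was -0.060 without vehicle replicate 1. Ldha over Pdha1 shifted by -0.20, Mpc1 over Mpc2 by 0.15, Pdk1 over Pdk2 by 0.12 and Slc16a1 over Slc16a3 by 0.05, all with overlap. Without MPE replicate 3 the shifts of Pdk1 over Pdk2 (-0.027) and of Slc16a1 over Slc16a3 (-0.019) had the opposite sign, and without vehicle replicate 1 that of Ldha over Pdha1 was -0.12. Without MPE replicate 3 that of Mpc1 over Mpc2 was 0.095, and without vehicle replicate 3 it was 0.23.

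The place on the slide went with several of these genes more than the treatment did. Arrays in columns 3 and 4 (vehicle replicate 3 and MPE replicates 3 and 4) were set against columns 1 and 2 (replicates 1 and 2 of both groups) in a limma fit that also held treatment, a contrast chosen after the values were seen. Replicate number and slide side cannot be told apart. Of all genes, 1.69% were called between the sides at an adjusted p under 0.05 (1.24% higher and 0.453% lower in columns 3 and 4), against 0 of the 10, and 26.5% had an unadjusted p under 0.05, against 3 of the 10. These were Ldha at -0.21 (SE 0.05, adjusted p = 0.0764), Ldhb at 0.21 (SE 0.07, adjusted p = 0.135) and Pdk2 at -0.31 (SE 0.09, adjusted p = 0.115). For these 3 and for Mpc1, every array of columns 3 and 4 lay beyond every array of columns 1 and 2, which held for 27.8% of all genes. Ldha was 9.01 to 9.20 in columns 1 and 2 and 8.77 to 8.95 in columns 3 and 4. Ldhb was 1.87 to 2.09 against 2.15 to 2.25. The Ldha over Ldhb balance was accordingly 6.94 to 7.23 on the first side and 6.58 to 6.80 on the second. Slc16a3 (-0.17, SE 0.08, adjusted p = 0.217) and Mpc1 (0.13, SE 0.06, adjusted p = 0.217) leaned the same ways as Ldha and Ldhb, respectively, without passing.

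The side difference exceeded the MPE difference in size for 7 of the 10 genes, where this held for 69.3% of all genes, so the share among the 10 is close to the background. Bright genes leaned one way here too, as 94.7% of those with a mean level above 7 were lower in columns 3 and 4, with a median of -0.12. With each array scaled to its median the Ldha side difference passed (adjusted p = 0.0465), and with quantile normalization it was -0.06 (adjusted p = 0.515). With normexp background correction that of Ldhb passed (adjusted p = 0.0485).

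**Figure D3:**
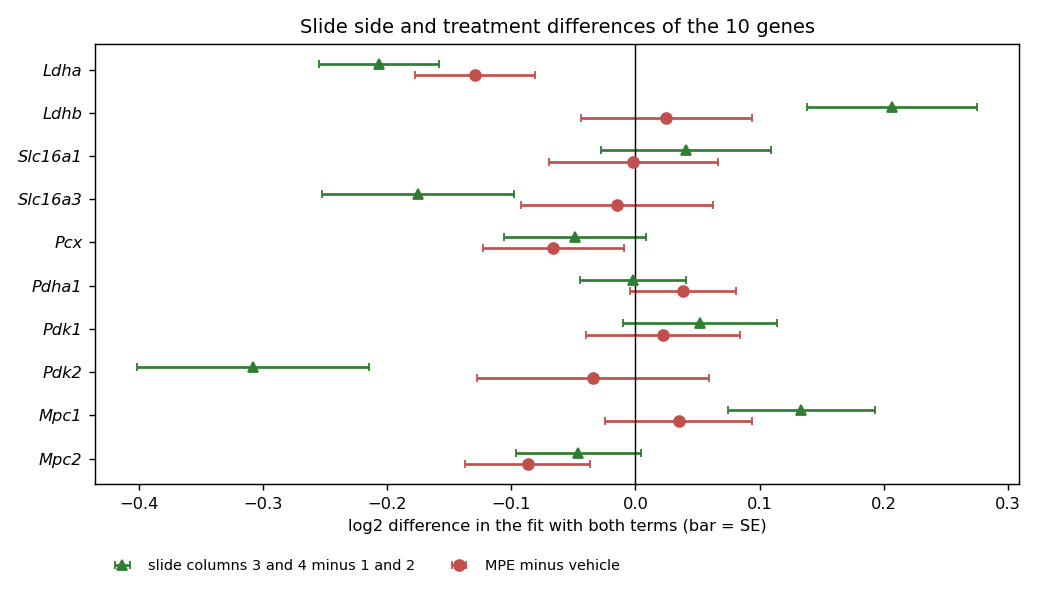
Log2 difference between slide sides (green triangles, columns 3 and 4 minus 1 and 2) and between MPE and vehicle (red circles) for the 10 genes, from 1 fit with both terms, with bars of 1 SE. The triangles of Ldha, Ldhb, Slc16a3, Pdk2 and Mpc1 lie farther from 0 than their circles, and the reverse holds for Pcx, Pdha1 and Mpc2.

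With slide side in the fit, the MPE difference of Ldha was -0.13 (SE 0.05) with an unadjusted p of 0.0381 and a limma adjusted p of 0.822. Here 5.83% of all genes had an unadjusted p under 0.05. Within columns 1 and 2 the MPE minus vehicle difference of Ldha was -0.13, and within columns 3 and 4 it was also -0.13. Compared column by column, MPE minus vehicle at the brighter Ldha probe was -0.16, -0.09 and -0.09 in the 3 columns that held both groups. The second Ldha probe was lower with MPE in column 1 (4.19 against 4.21) and higher in columns 2 (4.17 against 4.13) and 4 (4.27 against 4.05). For Mpc2 the column differences were -0.03, -0.11 and -0.09, lower in all 3 columns. Pdha1 was higher in all 3, at 0.10, 0.02 and 0.0047. The share of all genes with the same direction in all 3 columns was not counted. Pcx was lower in 2 columns (-0.06 and -0.07) and 0.0029 in the other. Ldhb (0.13, -0.15 and 0.11), Slc16a1 (-0.04, 0.18 and -0.14), Slc16a3 (-0.12, 0.09 and 0.09), Mpc1 (0.12, 0.05 and -0.12) and Pdk1 (0.10, 0.07 and -0.15) changed sign between columns. The MPE differences of Pdk2 in these columns were 0.02, 0.04 and 0.04, so its lower MPE mean came from MPE replicate 3, which had no vehicle array in its column.

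The genes around these routes did not pass either. Of 71 listed genes of the related pathways, 57 were tested, and 0 were called, with 0 at an unadjusted p under 0.05. Of the pyruvate dehydrogenase complex and its regulators, 8 of 10 were tested, 5 on the higher and 3 on the lower side, with a median of 0.02 against -0.02 for all genes. The largest differences were those of the phosphatase gene Pdp2, which reverses the kinases, at 0.11 (SE 0.06, adjusted p = 1.00 by limma) and the kinase gene Pdk3 at -0.07 (SE 0.08). Pdk4, the starvation-induced kinase, was well above background on 1 array and Pdha2, the testis form of Pdha1, on none.

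Of the other lactate dehydrogenases, monocarboxylate transporters and their chaperones, 4 of 7 were tested, 1 on the higher and 3 on the lower side. The mitochondrial D-lactate dehydrogenase Ldhd stood at 0.02 (SE 0.09). Basigin (Bsg) and embigin (Emb), which bring the transporters to the cell surface, stood at -0.02 (SE 0.05) and -0.00 (SE 0.05). Slc16a7, encoding the high-affinity transporter MCT2, had the largest difference of all the related genes on all-array probes. It read -1.95 to -1.62 with vehicle and -2.93 to -1.66 with MPE, with MPE replicates 3 and 4 the lowest arrays, and the difference was -0.44 (SE 0.29). The testis-type Ldhc, Ldhal6b and the retinal transporter gene Slc16a8 were above background on no array.

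Among 24 genes of anaplerosis, pyruvate cycling and NADH shuttles, 21 were tested, 6 on the higher and 15 on the lower side, with a median of -0.03. The pyruvate kinase gene Pkm had -0.11 (SE 0.09) and the dicarboxylate carrier gene Slc25a10 had 0.12 (SE 0.14). The liver-type pyruvate kinase Pklr and the cytosolic phosphoenolpyruvate carboxykinase Pck1 were above background on no array. Of 16 other genes held low in beta cells, 12 were tested, 6 on each side, with a median of 0.00. The largest differences on probes measured everywhere were those of Zfp36l1, an mRNA-decay factor, at -0.17 (SE 0.13) and Ndrg2 at 0.07 (SE 0.05). Maf and Mgst1 were above background on no array, and Pdgfra on 1. These cells thus had a readily measured Ldha, Slc16a1, Hk1, Acot7 and Oat beside Maf and Mgst1 that were not well above background.

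The hypoxia response controls Ldha, Slc16a3 and Pdk1 in many cells, so its regulators and other targets were read beside them. Of 14 genes, 12 were tested, 6 on each side, with a median of -0.00. The regulator Hif1a stood at 0.01 (SE 0.07) and the classical target Vegfa at 0.05 (SE 0.12). Pgk1, a glycolytic target, had the largest difference, -0.16 (SE 0.08), and the coactivator gene Ppargc1a had 0.08 (SE 0.07). Of markers of other cell types, 7 of 14 stromal, endothelial and immune genes were tested. Of these, 3 (Itgam, Tagln and Esam) had an unadjusted limma p under 0.05, all lower with MPE, as did 3.35% of all genes. The summed linear level of these 7 genes was 26.9 to 31.6 on vehicle and 25.1 to 26.7 on MPE arrays (75th percentile of the array = 1). Itgam was the brightest of the 7, with mean log2 levels of 4.27 with vehicle and 3.92 with MPE. It weighed most in this sum, which therefore largely repeats the Itgam difference. The share of such sums without overlap was not counted. All 16 beta-cell markers were tested, 3 on the higher and 13 on the lower side, with 0 at that p. Their median was -0.06 against -0.02 for all genes, with Ins1 at -0.15 (SE 0.11) and Ins2 at -0.18 (SE 0.10). Of 6 other islet hormone and identity genes, 4 were tested with 0 at that p, and Gcg stood at -0.00 (SE 0.07). Of 9 exocrine and duct genes, 4 were tested, and the lipase gene Cel had 1.63 (SE 0.57, unadjusted p = 0.0248 and adjusted p = 1.00 by limma). Of all genes, 0.756% were higher with MPE at an unadjusted p under 0.05. Cel read -4.08 to -3.63 with vehicle and -3.67 to -1.07 with MPE, and MPE replicate 3 lay within the vehicle range. The summed level of the 4 tested exocrine and duct genes was 4.22 to 6.63 on vehicle and 5.37 to 6.84 on MPE arrays. Krt7, with mean log2 levels of 2.37 with vehicle and 2.49 with MPE, made up most of that sum. The part of these marker genes in the values of the 10 genes was not tested.

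**Figure D4:**
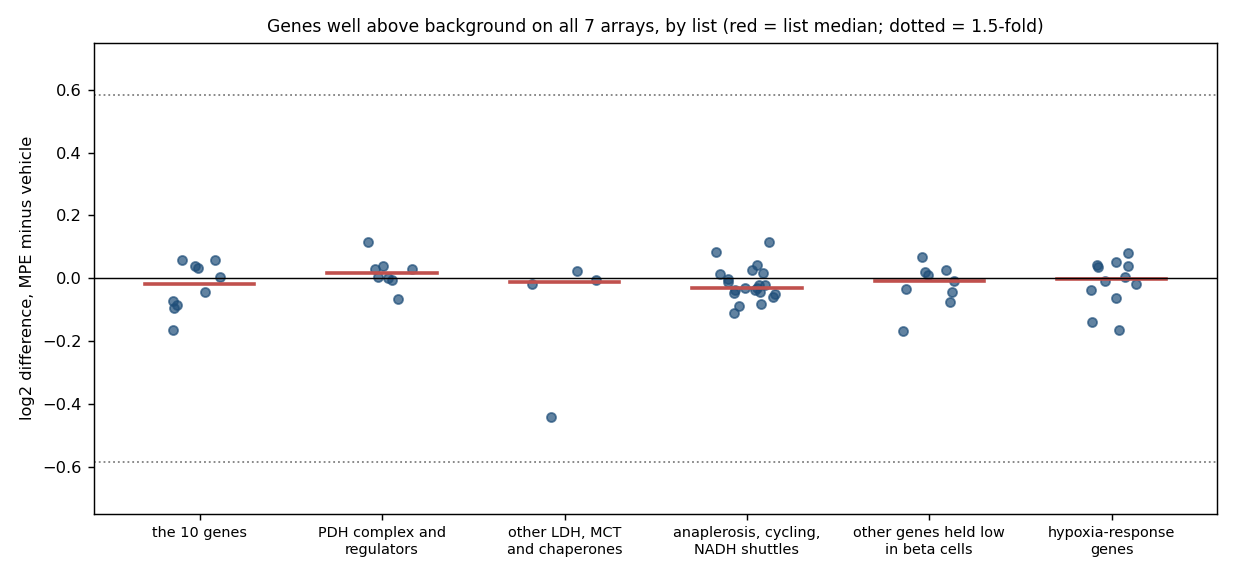
Log2 difference of MPE minus vehicle (vertical axis) for each gene well above background on all 7 arrays, for the 10 genes and the 5 related pathway lists (the cell type markers are not drawn), with the list median in red and dotted lines at 1.5-fold. Every point drawn lies inside the dotted lines, and the medians of these lists lie between -0.03 and 0.02.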

How the data were processed

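Total RNA was labelled with Cy3 and read on 1-colour arrays of 7 samples. Per the file headers, the deposited processed intensity had its background subtracted and its spatial trend removed by Agilent Feature Extraction 11.5.1.1 (10.5.1.1 in the submitters' processing notes), the median spot and background intensities are raw, and flags mark spots well above background. The authors' value table holds log2 values with 1 distribution on all arrays (medians 4.438), which correlated at 0.9996 or more with log2 intensity of the same array. The sources used here do not give its tool.

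Outlier-flagged spot values (611) were left out, no spot was saturated, and log2 intensities were averaged per probe, and the 75th percentile of each array was subtracted. Probes had to be well above background on 3 or more arrays, and each gene took its probe with the highest mean. Symbols came through RefSeq transcripts (32994 probes matched). MPE was compared with vehicle over 22098 genes with limma 3.58.1 under R 4.3.3, with Benjamini-Hochberg adjustment. The fit was tested on simulated data with independent noise, no slide differences and planted changes as large as a doubling. That test does not cover smaller changes or slide differences. The 10 genes, the gene lists and the tests were chosen with earlier results of these data known. Genes named beyond the 10 were the largest difference in each direction of each related list among those above background on all arrays, and Ins1, Ins2, Gcg, Col1a1, Ptprc and Cel. The others were chosen after their values were seen. The precision is limited by the number of arrays.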

Additional observations from a re-analysis of the deposited data

Results flagged for a closer look

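On 2 of 36 MPE values or balances checked, 1 array stood apart from the other 3, and chance would give about 1.8. Mpc1 on MPE replicate 3 read 5.979, against 5.82 to 5.83 on the other MPE arrays. The balance of Slc16a1 over Slc16a3 on MPE replicate 3 was -4.922, against -5.22 to -5.18 on the others. Vehicle replicate 3, in the neighbouring slide column, was also the highest vehicle array for both. MPE replicate 4, in the same column as vehicle replicate 3, read 5.83 and -5.19, near the remaining MPE arrays.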

How the results depend on the processing

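Over 19 alternatives and the further probes, 176 of 196 results for the 10 genes kept their direction, and 0 passed. The lowest limma adjusted p was 0.334, for Mpc2 with no filter, the setting in which 9996 genes were called. Array median scaling, under which the median of all genes was -0.09, gave -0.011 for Ldhb, -0.065 for Slc16a1, -0.032 for Pdha1, -0.039 for Pdk1 and -0.013 for Mpc1. Slc16a3 was 0.0076 with quantile normalization and 0.0088 in the authors' value table, and Pdk1 was -0.044 as the mean of its probes. With slide column as a block, Slc16a3 was 0.019 and Pdk2 0.031, and with slide side as a term Slc16a1 was -0.0017. Leaving out 1 array gave -0.10 to 0.039 for Slc16a3, -0.063 to 0.055 for Slc16a1 and -0.16 to 0.031 for Pdk2, which changed sign, and, without a change of sign, -0.23 (without vehicle replicate 3) to -0.11 (without vehicle replicate 1) for Ldha, 0.0085 (MPE replicate 4) to 0.14 (MPE replicate 2) for Ldhb, 0.0054 (vehicle replicate 1) to 0.13 (vehicle replicate 3) for Mpc1, 0.0040 (MPE replicate 3) to 0.078 (vehicle replicate 3) for Pdk1, -0.098 (MPE replicate 1) to -0.043 (vehicle replicate 1) for Pcx, 0.017 (vehicle replicate 1) to 0.049 (vehicle replicate 2) for Pdha1 and -0.12 (vehicle replicate 1) to -0.060 (vehicle replicate 2) for Mpc2. Other probes gave 0.029 for Ldha, -0.048 for Ldhb, and -0.060 and -0.18 for Pdk1. Of all genes, 1 was called, against 0 with normexp (on median spot signals), with a filter on all 7 arrays, with a replicate block or with slide column as a block, 3 with trended robust variance, and 0 to 4 without 1 array. With no filter 9996 genes were called, among them 5 listed genes, Pdha2, Pck1, Maf, Epas1 and Egln3, all above background on no array. The dimmest signal well above background was 12.6 to 15.5 on vehicle and 20.6 to 24.4 on MPE arrays. Deviations from the group mean, across genes, correlated at 0.248, 0.0508 and 0.413 between same-numbered replicates and at -0.334 to 0.305 between the other pairs. The numbers were not taken to pair the replicates. The replicate block gave -0.14 for Ldha (unadjusted p = 0.0454, limma adjusted p = 0.576). The slide-side difference reversed for 3 genes: Slc16a1 was -0.035 and Pdk1 -0.024 with median scaling, Pdha1 was 0.021 with quantile normalization and in the authors' value table, 0.018 with normexp and 0.024 with the percentile of probes above background everywhere, and Pdk1 was -0.11 as the probe mean. Without 1 array it was -0.032 to 0.074 for Slc16a1, -0.023 to 0.0084 for Pdha1 and -0.0074 to 0.11 for Pdk1. The cause of these shifts was not tested.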
